A study of Homo sapiens with 8 samples.

Results

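M4 cells (MCF10CA1a.cl1) were compared with M3 cells (MCF10Ca1h), 2 biological replicates of each, making up 4 of the 8 RNA-seq libraries of the series. They were chosen by their labels alone, as the pair of lines grown in the same medium without EGF. M2 is MCF10A, an immortalized and non-tumorigenic human mammary epithelial line, carrying an activated HRAS (T24), and M3 and M4 were each established from a tumour grown by M2 in mice, so both share its origin and its oncogene. In animals M4 is the more aggressive of the pair, with poorly differentiated tumours and spread to the lung, where M3 tumours are better differentiated. All 4 libraries came from acini grown in Matrigel for 8 days, in medium with 2% horse serum, hydrocortisone, cholera toxin and insulin. M1 (MCF10A itself) and M2 were grown with 10 ng/ml EGF, and their 4 libraries are given beside M3 and M4 only to show where a gene stood in the parental lines. A difference of M3 or M4 from M1 and M2 cannot be told apart from the absence of EGF. Each line is 1 derivative of 1 parental culture, so M4 against M3 compares those 2 derivatives and not grades of carcinoma in general.

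Several gene programmes recur in the comparison. Cholesterol is built from acetyl-CoA through mevalonate by enzymes that the transcription factor SREBP-2 switches on together, with the CCAAT-box factor NF-Y bound beside it. Interferon-stimulated genes are switched on by a complex that holds STAT2 and IRF9 at an interferon-stimulated response element (ISRE) and code for antiviral proteins. Hypoxia-induced genes carry a site for HIF-1 and include glycolytic enzymes and the acid-handling carbonic anhydrases. MHC class II genes, normally a property of antigen-presenting cells, share a Y box and depend on CIITA and on RFX factors. Cells that gain mesenchymal genes and lose tight junctions are said to pass through an epithelial-mesenchymal transition.

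Stretches of promoter are shown here because they carry the letters of these programmes in genes whose levels are described below. They lie before the annotated start, are read 5′ to 3′ on the gene's strand, and come from RefSeq on GRCh38.p14. Capitals mark every match of the motif on either strand. GAAANNGAA, the core of the ISRE, was found in 27 of the 38 promoter windows of interferon-stimulated genes tested, and in 8.11% of all 35116 windows of 250 bases before to 50 after a start.
ISG15 (chr1:1013364-1013424, plus strand): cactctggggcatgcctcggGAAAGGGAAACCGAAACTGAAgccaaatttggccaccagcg
IFI27 (chr14:94110603-94110663, plus strand): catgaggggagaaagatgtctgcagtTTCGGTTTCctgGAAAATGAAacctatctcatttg
IFI6 (chr1:27672273-27672333, minus strand): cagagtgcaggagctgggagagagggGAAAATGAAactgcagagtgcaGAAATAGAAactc
ATTGG, the CCAAT box read on its other strand, was found in 18 of 23 windows of cholesterol genes against 34.6% of all windows.
HMGCS1 (chr5:43313537-43313593, minus strand): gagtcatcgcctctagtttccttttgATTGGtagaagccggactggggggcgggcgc
MVD (chr16:88663181-88663237, minus strand): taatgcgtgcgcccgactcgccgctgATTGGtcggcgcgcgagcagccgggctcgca
TM7SF2 (chr11:65111772-65111828, plus strand): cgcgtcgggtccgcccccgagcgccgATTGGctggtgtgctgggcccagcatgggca
ACGTG, the core of a hypoxia response element, was found in 21 of 51 windows of glycolysis and hypoxia genes against 21.4% of all windows. CACGTG holds it on both strands.
LDHA (chr11:18394451-18394507, plus strand): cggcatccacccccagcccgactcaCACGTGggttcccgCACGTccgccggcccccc
CA9 (chr9:35673884-35673927, plus strand): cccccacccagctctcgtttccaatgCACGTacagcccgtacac
CTGATTGG, letters of the MHC class II Y box that contain ATTGG, was found in 4 of 16 windows of the MHC class II list against 3.97% of all windows.
HLA-DQB1 (chr6:32666715-32666774, minus strand): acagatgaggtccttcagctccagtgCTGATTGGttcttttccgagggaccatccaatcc
A match is a description of the letters and does not show that a factor was bound. A gene can have several windows, and the windows had an entry for 30 of 38 interferon, 18 of 24 cholesterol, 30 of 34 glycolysis and hypoxia and 11 of 14 MHC class II members tested.

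The expected counts summed to 87747958 and 86382401 in the M3 libraries and to 107350344 and 76071113 in the M4 libraries. Levels below are CPM, counts divided by the library total after TMM scaling and set to a common total, for replicate 1 and replicate 2 in that order. CPM is not divided by transcript length, so levels are compared between lines and not between genes. The estimated coefficient of variation between replicates was 0.307 in M3 and 0.271 in M4, against 0.377 in M1 and 0.058 in M2. All 4 libraries held the epithelial markers EPCAM, CDH1, KRT8 and KRT18, with summed levels of 2390 to 2528 CPM in M3 and 3101 to 4759 CPM in M4. Among defining markers of other cells, PTPRC and LEP had no count in M3 or M4. The summed marker levels of fibroblasts were 25.1 to 51.9 CPM in M3 and 18.6 to 37.7 CPM in M4, mostly FAP, and 0 of 5 tested were called. Immune markers summed to 13.4 to 42 CPM in M3 and 64.7 to 73.4 CPM in M4, mostly CD68 and CSF1R, and 0 of 3 were called. Endothelial markers summed to 1.21 to 2.15 CPM in M3 and 0.243 to 0.405 CPM in M4, with CDH5 at 0 in M3 and VWF called higher and KDR lower among the 3 tested, and of the adipocyte markers 0 of 1 was called.

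Of 18431 genes tested, 1897 (10.3%) were called, meaning a Benjamini-Hochberg adjusted p under 0.05 with more than a 2-fold change in edgeR's quasi-likelihood test. The p-values measure only the spread between replicate libraries of cultured lines. That spread was estimated over all 8 libraries, those of M1 and M2 included. Below, a library that a call needed or depended on is one without which the gene was not called. Its fold can be little changed in such a fit, which has fewer libraries to test with. In M4, 735 genes (3.99%) were higher and 1162 (6.30%) lower. These shares are the background for every count of list members below. The median fold was 3.58 among those called higher and 4.98 among those called lower. The size of this imbalance rested on the scaling. With plain library totals, which moved the median log2 fold change over all genes from -0.02 to 0.10, 936 genes were called higher and 963 lower. The 2 lines did not overlap for any of the 1897 called genes, as was so for 60.2% of all genes tested. Where a lack of overlap is stated below for called genes, it is therefore no further support for them. Of the 14088 protein coding genes tested, 589 (4.18%) were higher and 1037 (7.36%) lower, and of 1995 long non-coding RNAs 79 were higher and 60 lower. A cruder rule, over 2-fold in replicate 1 against replicate 1 and also in replicate 2 against replicate 2, was met by 4750 of 27462 genes with a count (17.3%), 2390 higher and 2360 lower in M4. That rule has no test, and 1489 of its genes stayed under 10 counts in every M3 and M4 library. The rule held for 82.5% of the called genes, and 32.9% of the genes it picked were called.

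**Figure D1:**
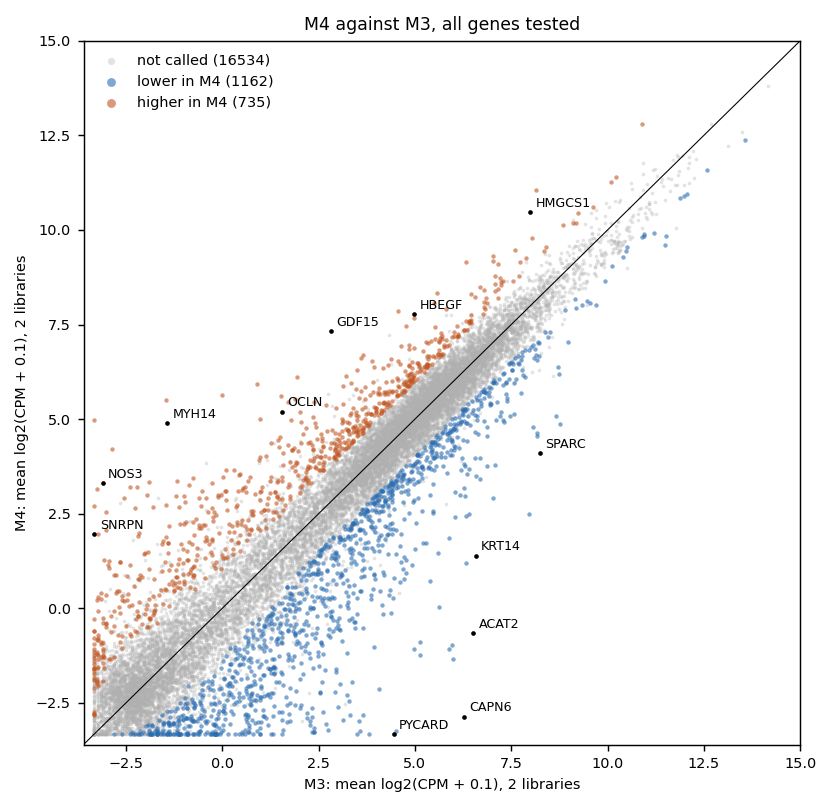
Each point is a gene tested, placed by its mean log2(CPM + 0.1) over 2 M3 libraries (x axis) and 2 M4 libraries (y axis), with the diagonal marking equal levels. The 735 genes called higher in M4 lie above it and the 1162 called lower lie below it, and PYCARD, CAPN6 and ACAT2 are among those nearly absent from M4.

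Called genes were sorted by which line stood apart from the parental lines. Since they were chosen for a change of over 2-fold between M3 and M4, 1 line or both often stand apart by selection. The same shares were not computed over all genes tested, so those below have no background. Among the 735 genes higher in M4, 398 (54.1%) had M4 more than 1 log2 unit away from the mean of the 4 M1 and M2 libraries while M3 stayed within 1 unit. For 87 (11.8%) it was M3 that stood apart, so that M4 kept the parental level. Among the 1162 lower genes, 551 (47.4%) had only M4 apart, 212 (18.2%) had only M3 apart, and 114 (9.81%) had the lines apart in opposite directions. Because M1 and M2 enter as 1 mean of 4 libraries, a doubt about which belong to M1 and which to M2 does not move a gene's position. It does change which genes are called, and the shares were not computed for that other set. That doubt comes from the order of the sample names, and the exchange of M1 replicate 2 with M2 replicate 1 is among the alternatives named below because the fit shares its spread over all 8 libraries. With the exchange 830 genes were called, 828 of them among the 1897. The exchange puts the 2 libraries labelled M2, whose coefficient of variation was 0.058, into different groups. Calls lost with the exchange below were lost with a spread estimated under that grouping. Fewer cells of a kind and less RNA per cell cannot be told apart in such bulk libraries, here or in any result below.

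**Figure D2:**
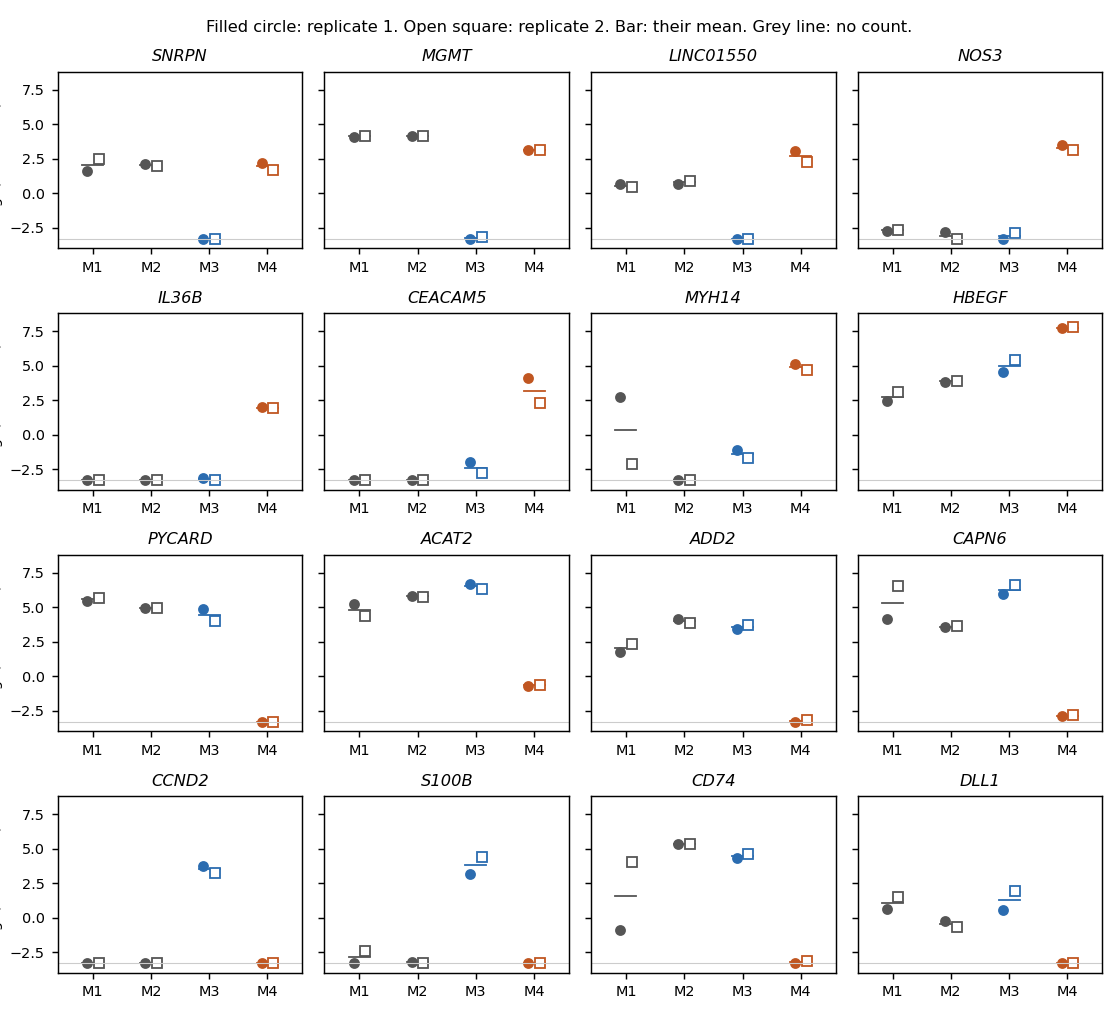
Each panel gives 1 gene as log2(CPM + 0.1) in the 2 libraries of M1, M2, M3 and M4, with replicate 1 as a filled circle, replicate 2 as an open square and their mean as a bar. SNRPN, MGMT and LINC01550 are missing from M3 alone, CCND2 and S100B are present in M3 alone, and PYCARD, ACAT2, ADD2, CAPN6 and DLL1 are missing or nearly so from M4 alone.

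The most extreme genes higher in M4 included several that only M3 lacked. SNRPN, which codes for a small nuclear ribonucleoprotein and is imprinted so that only the paternal copy is active, lies at chr15:25068784-25223870 on the plus strand (GRCh37). It had 0 and 0 counts in the M3 libraries and 507 and 249 in the M4 libraries, or 4.47 and 3.19 CPM, and 3.01 to 5.44 CPM in the 4 M1 and M2 libraries. M4 was at least 212-fold higher (adjusted p = 0.00135), a bound that sets the 0 in M3 to 3 counts over both libraries, as do all such bounds here. ENSG00000214265, a protein coding gene overlapping SNRPN at chr15:25200181-25245423, had 0 and 0 counts in M3 and 3764 and 2292 in M4, at least 1733-fold higher (adjusted p = 0.000137). SNHG14, the long host transcript that runs on through the same region and carries small nucleolar RNAs, was at 0.0126 and 0.0689 CPM in M3 and 19.5 and 17.3 CPM in M4 and at 16.5 to 20.9 CPM in the parental lines. Its log2 fold change was 8.73 ± 0.44 (SE, adjusted p = 0.000218). These 3 transcripts of 15q were present in every library but those of M3, where they were absent or nearly so. Reads shared by SNRPN and ENSG00000214265 are divided between them by estimate, so their separate levels are less sure than their sum.

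MGMT and LINC01550 were also absent or nearly absent from M3. MGMT, the enzyme that removes alkyl groups from guanine in DNA, had 0 and 1 counts in M3 and 994 and 681 in M4, and lies at chr10:131265454-131569247. Its level was 8.76 and 8.72 CPM in M4 and 16.6 to 18 CPM in M1 and M2, so M4 stood above M3 and below the parental lines. The ratio of M4 to M3 was 1523-fold (counting interval 261 to 57410), with an adjusted p of 0.000137. LINC01550, a non-coding RNA on 14q, had 0 and 0 counts in M3, 8.42 and 4.82 CPM in M4 and 1.24 to 1.76 CPM in the parental lines, at least 367-fold higher in M4 (adjusted p = 0.00112). Every alternative kept the call of SNRPN, ENSG00000214265, SNHG14, MGMT and LINC01550.

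Other genes were at or near 0 in M3 and mostly so in the parental lines, and were expressed in M4. NOS3, the endothelial nitric oxide synthase, lies on 7q at chr7:150688105-150711676 and had 0 and 3 counts in M3 against 1244 and 686 in M4, where it reached 11 and 8.79 CPM. It stayed at 0 to 0.061 CPM in M1 and M2. The ratio of M4 to M3 was 573-fold (counting interval 187 to 2654) with an adjusted p of 0.00227. Its neighbour ATG9B, of the autophagy protein 9 family, overlaps NOS3 from the opposite strand and was at 0.0126 and 0.0344 CPM in M3 and 19.7 and 1.64 CPM in M4. The M4 replicates of ATG9B were far apart where those of NOS3 were close, and without stranded counting reads of the pair cannot be told apart. IL36B, a cytokine of the IL-1 family, had 1 and 0 counts in M3 and 445 and 287 in M4, a ratio of 602-fold (counting interval 113 to 24950), with an adjusted p of 0.00382. CEACAM5, the carcinoembryonic antigen, was at 0.152 and 0.0459 CPM in M3 and 17 and 4.83 CPM in M4, with no count in M1 or M2. MYH14, a non-muscle myosin heavy chain, was at 0.354 and 0.207 CPM in M3 and 34.1 and 25.6 CPM in M4, and at 0 to 6.44 CPM in M1 and M2. DEFB103B, which codes for beta-defensin 3 and has a near-identical copy in DEFB103A, was at 0.0253 and 0.023 CPM in M3 and 8.66 and 1.92 CPM in M4. CRCT1, a gene of the epidermal differentiation complex on 1q, was at 0.126 and 0.0918 CPM in M3 and 14.1 and 2.66 CPM in M4. M4 replicate 1 was well above M4 replicate 2 for ATG9B, CEACAM5, DEFB103B and CRCT1. The log2 fold changes were 6.79 ± 0.94 for CEACAM5, 6.74 ± 1.62 for MYH14, 7.70 ± 1.05 for DEFB103B and 6.25 ± 1.10 for CRCT1 (SE). The call held in all alternative fits for NOS3, IL36B and CEACAM5. Omission of the library in parentheses ended the call of ATG9B (M3 replicate 1 or 2), MYH14 (any of the 4), DEFB103B (M3 replicate 1 or 2) and CRCT1 (M3 replicate 1 or 2 or M4 replicate 1), at adjusted p from 0.0509 to 0.16. A call also ended with the exchange of M1 and M2 libraries (MYH14).

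Among genes lower in M4, a group was absent or nearly absent from M4 and present in all other lines. PYCARD, the adaptor ASC through which inflammasome sensors recruit caspase-1, lies on 16p at chr16:31212807-31214771. It was at 29.6 and 15.9 CPM in M3 and 30.5 to 50.5 CPM in M1 and M2, and had no count in either M4 library, at least 1451-fold lower (adjusted p = 0.000474). ADD2, the beta subunit of the membrane skeleton protein adducin, was at 3.34 to 17.7 CPM in M1 and M2. It had 843 and 1136 counts in M3 and 0 and 1 in M4, a ratio of M3 to M4 of 1849-fold (counting interval 407 to 89610). AGMAT, a relative of arginase, had 306 and 597 counts in M3 and 1 and 0 in M4, a ratio of 1216-fold (counting interval 184 to 40550). CAPN6, a calpain that lacks the catalytic residue of its family, was at 62.3 and 96.8 CPM in M3 and 0.0352 and 0.0384 CPM in M4, a log2 fold change of -11.03 ± 1.11 (SE, adjusted p = 0.00256), and at 11.9 to 92.2 CPM in the parental lines. DLL1, a ligand of Notch receptors, had 111 and 322 counts in M3 and none in M4, at least 163-fold lower. ARHGEF25, an exchange factor for RhoA, had 128 and 192 counts in M3 and none in M4, at least 122-fold lower. CX3CL1, the membrane-bound chemokine fractalkine, had 381 and 475 counts in M3 and 1 and 0 in M4. Both M4 libraries were at or near 0 for each of these genes, and the parental lines were lowest for ARHGEF25, at 0.193 to 1.28 CPM. No alternative ended the call of PYCARD, ADD2, AGMAT, CAPN6 and DLL1. The call was lost without the library in parentheses for ARHGEF25 (M4 replicate 1) and CX3CL1 (M4 replicate 1 or 2), at adjusted p from 0.0558 to 0.0646.

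A second group was high in M3 and absent or far lower in every other line. CCND2, cyclin D2, which drives cells through G1, lies on 12p at chr12:4378937-4414519. It had 1074 and 816 counts in M3, or 13.6 and 9.37 CPM, and none in the 6 libraries of the other lines. M4 was at least 732-fold lower (adjusted p = 0.00267). S100B, a calcium-binding protein best known from glia and melanocytes, was at 9.06 and 21.3 CPM in M3, had no count in M4 and was at 0 to 0.0854 CPM in M1 and M2. M4 was at least 970.1-fold lower (adjusted p = 0.00428). S100A1 was at 60.3 and 39.9 CPM in M3 and 1.36 and 0.615 CPM in M4 and at 0.923 to 5.26 CPM in the parental lines. RNF144A, a ubiquitin ligase on 2p, had 156 and 365 counts in M3 and 2 and 0 in M4, and 0.275 to 0.537 CPM in M1 and M2. THY1, a surface glycoprotein of mesenchymal and stem cells, was at 6.08 and 1.76 CPM in M3 and 0.0176 and 0.0384 CPM in M4 and at no more than 0.0491 CPM in M1 and M2. These genes were thus high in both M3 libraries and low everywhere else. All alternatives called CCND2, S100B, S100A1 and RNF144A. The call of THY1 was lost without M4 replicate 1, at an adjusted p of 0.0692.

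**Figure D3:**
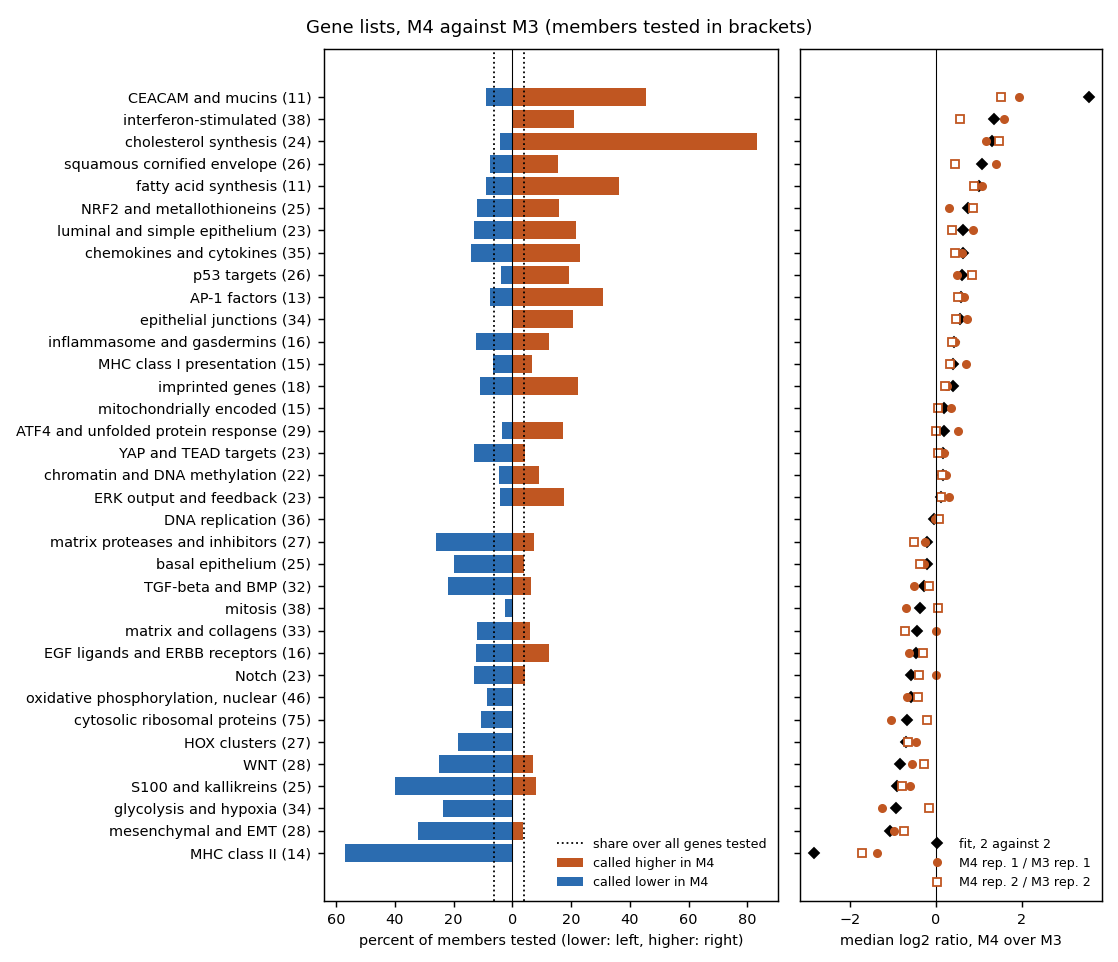
For each list with at least 10 members tested, the left panel gives the percent of members called higher (right) or lower (left) in M4, with dotted lines at 3.99% and 6.30%, the shares over all genes. The right panel gives the median log2 ratio over members from the fit (diamonds) and in each replicate pair on the log2(CPM + 0.1) scale (circles and squares), with the cholesterol list standing out in both.

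Genes of cholesterol synthesis made up the list with the largest share called. Of 24 genes tested, 20 were higher and 1 was lower in M4, with a median log2 fold change of 1.31 against -0.02 over all genes. In M4 over M3 the median was 1.16 for the replicates numbered 1 and 1.46 for those numbered 2. HMGCS1, which makes HMG-CoA and whose promoter stretch is shown above, was at 212 and 306 CPM in M3 and 1232 and 1633 CPM in M4. MVD, which makes isopentenyl pyrophosphate, was at 129 and 129 CPM in M3 and 609 and 555 CPM in M4. TM7SF2, a sterol reductase, was at 5.8 and 4.7 CPM in M3 and 29.3 and 30.2 CPM in M4. All 3 were higher in both M4 libraries than in either M3 library, with log2 fold changes of 2.47 ± 0.29, 2.17 ± 0.26 and 2.50 ± 0.21 (SE). SREBF2, which codes for SREBP-2 itself, was at 292 and 297 CPM in M3 and 329 and 379 CPM in M4, a log2 fold change of 0.26 (adjusted p = 0.242).

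ACAT2 was the exception in its pathway. It codes for the cytosolic acetoacetyl-CoA thiolase that joins the first acetyl-CoA units, lies on 6q at chr6:160183077-160200144 and was at 102 and 81 CPM in M3 and 0.511 and 0.551 CPM in M4, with 20.3 to 57.4 CPM in M1 and M2. Both M4 libraries were thus far below all 6 others, at a log2 fold change of -7.43 ± 0.38 (SE, adjusted p = 0.000218). Leaving out M3 replicate 1, M3 replicate 2, M4 replicate 1 and M4 replicate 2 in turn, an order kept below, gave 8, 12, 8 and 6 cholesterol genes called higher, and 6 with the exchange of M1 and M2 libraries. ACAT2 and TM7SF2 kept their calls under all alternatives. The named calls were lost with the exchange of M1 and M2 libraries (HMGCS1, MVD).

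Fewer genes were called in the fatty acid synthesis list, which also holds the sterol-regulated TMEM97. Of 11 genes, 4 were higher and 1 lower, with a median log2 fold change of 1.01. ACSS2, which makes acetyl-CoA from acetate, was at 140.0 and 145 CPM in M3 and 598 and 496 CPM in M4. TMEM97, a sterol-regulated membrane protein, was at 40.1 and 52.3 CPM in M3 and 152 and 198 CPM in M4. ACLY, which makes acetyl-CoA from citrate, was at 546 and 562 CPM in M3 and 1266 and 1066 CPM in M4. SREBF1, which codes for SREBP-1, was lower, at 239.6 and 370.3 CPM in M3 and 152 and 109.8 CPM in M4. FASN, the fatty acid synthase, was at 784 and 1423 CPM in M3 and 1632 and 1488 CPM in M4 and did not pass the test (log2 fold change 0.50, adjusted p = 0.502). SCD, the stearoyl-CoA desaturase, was at 2488 and 2156 CPM in M3 and 2968 and 3121 CPM in M4 and did not pass either (log2 fold change 0.39, adjusted p = 0.365). In the 4 fits that leave out a library, 2, 3, 2 and 2 fatty acid genes were higher. Calls held throughout for ACSS2 and TMEM97. The library in parentheses was needed for the call of ACLY (any of the 4) and SREBF1 (M4 replicate 1 or 2), at adjusted p from 0.0505 to 0.131. Past the p threshold but under the 2-fold limit was SREBF1 without M3 replicate 2 (log2 fold change -0.87). Losses also came with the exchange of M1 and M2 libraries (ACLY, SREBF1).

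Most interferon-stimulated genes were far higher in M4 replicate 1 than in M4 replicate 2. Of 38 tested, 8 were called higher and 0 lower, and the median log2 fold change was 1.35. M4 replicate 1 was more than 2-fold above M4 replicate 2 for 28 of the 38 members and the reverse held for 0, where the shares over all 16286 genes with at least 20 counts in 1 of the 2 libraries were 9.16% and 2.22%. Summed over the list, the level was 776 and 628 CPM in M3 but 1793 and 749.9 CPM in M4, so M4 replicate 2 lay within the M3 values and M4 replicate 1 far above them. IFI6, an inhibitor of viral replication, was at 2.46 and 1.83 CPM in M3 and 96.5 and 2.28 CPM in M4. IFI27 was at 0.808 and 0.23 CPM in M3 and 45.7 and 1.87 CPM in M4. ISG15, a ubiquitin-like protein, was at 2.78 and 1.94 CPM in M3 and 59.8 and 7 CPM in M4. IFIT2, which binds foreign RNA, was at 1.55 and 0.815 CPM in M3 and 32.2 and 4.88 CPM in M4. M4 replicate 2 was within the range of M3 for IFI6 and above both M3 libraries for IFI27, ISG15 and IFIT2. The promoter stretches of ISG15, IFI27 and IFI6 printed above each hold more than 1 match of the ISRE core.

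Several genes that sense viral RNA or carry the interferon signal were higher in both M4 replicates. IRF7, the factor that amplifies interferon production, was at 3.16 and 2.38 CPM in M3 and 40.8 and 12.9 CPM in M4. RIGI, a sensor of viral RNA, was at 15.1 and 17.8 CPM in M3 and 80.5 and 34.1 CPM in M4. IFIH1, a sensor of long double-stranded RNA, was at 8.69 and 10.4 CPM in M3 and 33.6 and 19.2 CPM in M4. STAT2 was at 17.6 and 15.5 CPM in M3 and 48.7 and 24 CPM in M4. All 4 were called higher, with adjusted p values from 0.0115 to 0.0393. IFI6, RIGI, IFIH1, IRF7 and STAT2 are named here after their values were seen. The interferon-stimulated genes called higher numbered 2, 2, 2 and 20 with each library left out, and 20 with DESeq2, 23 without the filter, 5 in the 4 libraries alone and 5 with the exchange of M1 and M2 libraries. Without the library in parentheses, calls ended for IRF7 (M3 replicate 1 or 2 or M4 replicate 1), RIGI (M3 replicate 1 or 2), IFIH1 (M3 replicate 1 or M4 replicate 1), STAT2 (M3 replicate 1 or 2 or M4 replicate 1), IFI27 (M3 replicate 1 or 2 or M4 replicate 1), IFIT2 (M3 replicate 1 or 2 or M4 replicate 1) and ISG15 (M3 replicate 1 or 2 or M4 replicate 1), at adjusted p from 0.0514 to 0.342. Calls were also lost with the exchange of M1 and M2 libraries (STAT2, IFI27, ISG15), a replicate block in 8 libraries (IFI27), a replicate block in the 4 libraries (RIGI, IFI27, ISG15) and the 4 libraries alone (STAT2, IFI27, ISG15).

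**Figure D4:**
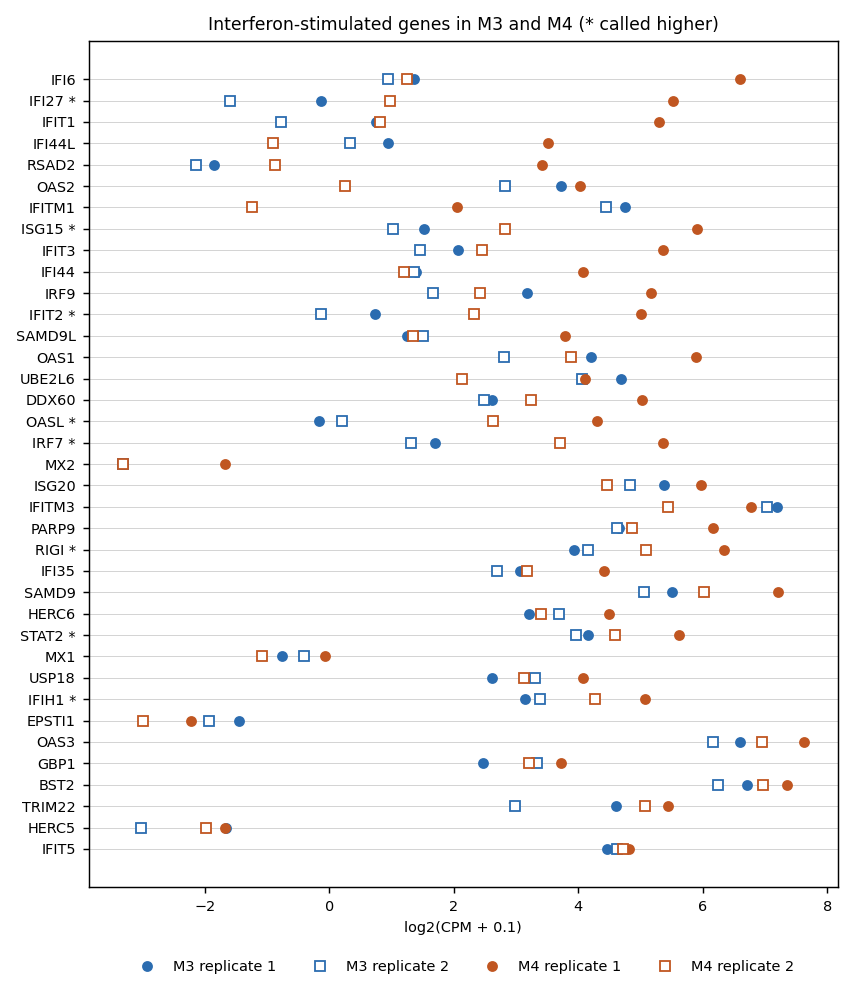
Rows are interferon-stimulated genes tested, each with its level in the 4 libraries as log2(CPM + 0.1) on the x axis and an asterisk where it was called higher in M4, ordered by the difference between the M4 replicates. The filled circles of M4 replicate 1 lie to the right of the other 3 libraries for most rows, while M4 replicate 2 lies among the M3 points for many of them.

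Genes of the MHC class II list called between the lines were all lower in M4. The list holds regulators such as RFX5 beside the class II chains. Of 14 tested, 0 were higher and 8 lower, with a median log2 fold change of -2.85 (-2.24 with genes at 0 set to their bound). CD74, the invariant chain that guards the peptide groove, had 1619 and 2175 counts in M3 and 0 and 1 in M4, a ratio of M3 to M4 of 3545-fold (counting interval 781 to 171800) with an adjusted p of 0.016. HLA-DPB1 had 95 and 115 counts in M3 and none in M4, at least 80.5-fold lower. HLA-DRA had 53 and 66 in M3 and none in M4, at least 45.6-fold lower. HLA-DQB1, whose promoter stretch with the Y box letters is shown above, was at 1.5 and 1.03 CPM in M3 and 0.159 and 0.0769 CPM in M4. CTSS, the protease that removes the invariant chain, was at 2.49 and 1.87 CPM in M3 and 0.132 and 0.384 CPM in M4. RFX5, a DNA-binding subunit of the complex that recruits CIITA, was at 50.4 and 70.6 CPM in M3 and 25 and 24.9 CPM in M4 (log2 fold change -1.28 ± 0.17, SE, adjusted p = 0.00517). CIITA, the coactivator on which the group depends, was at 0.152 and 0.287 CPM in M3 and 0.211 and 0.218 CPM in M4 and was not called (adjusted p = 0.979). So these class II chains were present in both M3 libraries and at or near 0 in both M4 libraries, with CIITA at a like low level in all 4. CD74 varied in the parental lines too, from 0.435 to 41.2 CPM. Omitting each of the 4 libraries left 5, 6, 2 and 3 MHC class II genes called lower, and 4 with the exchange of M1 and M2 libraries. Every alternative kept the call of CTSS and RFX5. Calls depended on the library in parentheses for CD74 (M4 replicate 1 or 2), HLA-DPB1 (M4 replicate 1), HLA-DRA (any of the 4) and HLA-DQB1 (M3 replicate 1 or M4 replicate 1 or 2), at adjusted p from 0.0606 to 0.161. Other alternatives that ended a call were the exchange of M1 and M2 libraries (HLA-DPB1, HLA-DRA, HLA-DQB1) and a replicate block in 8 libraries (HLA-DRA).

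Few MHC class I presentation genes were called, in shares near those over all genes. HLA-F was higher, at 12.9 and 9.95 CPM in M3 and 47.5 and 23.8 CPM in M4. HLA-C was lower, at 176 and 162 CPM in M3 and 57.4 and 35 CPM in M4. They were the only called genes of 15 tested, whose median log2 fold change was 0.40, and with library totals 3 were higher and 1 lower. HLA genes are highly alike and polymorphic, so the division of reads among them is uncertain. Omission of the libraries in that order gave 2, 1, 0 and 2 MHC class I genes higher. The call held in all alternative fits for HLA-C. The call of HLA-F was lost without M3 replicate 2 or M4 replicate 1, at adjusted p from 0.0621 to 0.0648.

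Part of the epithelial junction list was higher in M4. Of 34 epithelial junction genes, 7 were higher and 0 lower, with a median log2 fold change of 0.55. OCLN, occludin, was at 3.02 and 2.63 CPM in M3 and 40.1 and 33.5 CPM in M4. CLDN4, claudin-4, was at 56.4 and 39.5 CPM in M3 and 379 and 271 CPM in M4. OVOL1, a transcription factor of epithelial differentiation, was at 1.21 and 2.87 CPM in M3 and 16.8 and 15.1 CPM in M4. GRHL3, another, was at 2.73 and 1.23 CPM in M3 and 15.6 and 14.5 CPM in M4. CDH1, E-cadherin, was at 126 and 148 CPM in M3 and 222 and 211 CPM in M4. Every M4 library lay above every M3 library for these 5 genes. The change of CDH1 was under 2-fold (log2 fold change 0.66 ± 0.15, adjusted p = 0.0232), and those of OCLN and CLDN4 were 3.70 ± 0.28 and 2.76 ± 0.23 on the log2 scale. The 4 omissions of a library called 4, 8, 4 and 6 junction genes higher, and 4 with the exchange of M1 and M2 libraries. No alternative ended the call of CLDN4. The call was lost without the library in parentheses for OVOL1 (M3 replicate 1 or M4 replicate 1 or 2) and GRHL3 (M3 replicate 2 or M4 replicate 1 or 2), at adjusted p from 0.0561 to 0.0917. Beside single libraries, the calls in parentheses were lost with the exchange of M1 and M2 libraries (OCLN).

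Part of the mesenchymal list was lower in M4. Of 28 tested, 9 were lower and 1 was higher, with a median log2 fold change of -1.07. SPARC, a collagen-binding matrix protein, was at 253 and 359 CPM in M3 and 19.9 and 14.4 CPM in M4. WNT5A, a ligand of non-canonical WNT signalling, had 33 and 163 counts in M3 and 2 and 0 in M4, a ratio of 129.8-fold (counting interval 30.3 to 905). SNAI2, a repressor of epithelial genes, was at 98.9 and 80.2 CPM in M3 and 31.1 and 41.6 CPM in M4. TWIST2, a basic helix-loop-helix factor, was at 1.69 and 3.73 CPM in M3 and 0.106 and 0.231 CPM in M4. SNAI1, a repressor of the same family as SNAI2, was the member that rose, from 0.632 and 1.14 CPM in M3 to 2.44 and 6.03 CPM in M4. VIM, vimentin, was at 1899 and 1100 CPM in M3 and 573 and 451 CPM in M4 and was not called (adjusted p = 0.203). FN1, fibronectin, was at 122 and 143 CPM in M3 and 276 and 86.3 CPM in M4 and was not called (adjusted p = 0.563). ZEB1 was at 0.253 and 0.494 CPM in M3 and 1.3 and 0.884 CPM in M4 (adjusted p = 0.0733). Leaving out each library in turn gave 7, 9, 2 and 6 mesenchymal genes called lower, and 14 without the filter. All alternatives called SNAI2 and TWIST2. With the library in parentheses left out, no call was made for SPARC (M4 replicate 1 or 2), WNT5A (M4 replicate 1 or 2) and SNAI1 (M3 replicate 1 or 2 or M4 replicate 2), at adjusted p from 0.0511 to 0.143. Among other alternatives, calls ended with the exchange of M1 and M2 libraries (SNAI1).

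Basal and luminal markers shifted in part. KRT14, a keratin of basal cells, was at 99.7 and 91.1 CPM in M3 and 2.3 and 2.74 CPM in M4, a log2 fold change of -5.24 ± 0.37 (SE, adjusted p = 0.000948). KRT5, its partner, was at 7056 and 5365 CPM in M3 and 3268 and 2838 CPM in M4, so the pair fell by very different amounts. Of 25 basal genes, 5 were lower and 1 higher, the latter LAMB3, the beta chain of laminin-332, at 758 and 807 CPM in M3 and 1574 and 1558 CPM in M4. ITGB4, the integrin chain that binds laminin-332, was lower, at 2347 and 2409 CPM in M3 and 998 and 939.5 CPM in M4. Of 23 luminal genes, 5 were higher and 3 lower. KRT80, a type II keratin, was at 2.67 and 3.79 CPM in M3 and 56.7 and 34.1 CPM in M4. FOXA1, a pioneer factor of luminal cells, was at 3.37 and 6.64 CPM in M3 and 15.1 and 15.1 CPM in M4. MUC1 was lower, at 6.35 and 5.8 CPM in M3 and 1.78 and 0.999 CPM in M4. KRT23 was lower as well, at 10.9 and 5.53 CPM in M3 and 1.49 and 2.22 CPM in M4. With each library left out in turn, 4, 3, 2 and 2 basal genes were called lower. In the 4 fits that leave out a library, 4, 5, 2 and 5 luminal genes were higher, and 2 with the exchange of M1 and M2 libraries. In the same order there were 2, 2, 1 and 2 luminal genes lower. KRT14, ITGB4, KRT80 and MUC1 kept their calls under all alternatives. Calls were lost without the library in parentheses for KRT5 (M3 replicate 1 or M4 replicate 1 or 2), LAMB3 (any of the 4), FOXA1 (M3 replicate 1 or M4 replicate 1 or 2) and KRT23 (M3 replicate 1 or M4 replicate 1 or 2), at adjusted p from 0.0561 to 0.144. The named calls were also lost with the exchange of M1 and M2 libraries (KRT5, LAMB3, FOXA1, KRT23), a replicate block in the 4 libraries (KRT5), the 4 libraries alone (KRT5), library totals (KRT5), RLE scaling (KRT5), DESeq2 (KRT5) and no filter (LAMB3).

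Some genes of mucin coats and of cornified epithelium were higher in M4, more so in replicate 1. Of 11 CEACAM and mucin genes, 5 were higher and 1, MUC1, was lower. Their median log2 fold change was 3.55, or 2.51 with genes at 0 set to their bound. MUC16, the CA125 antigen, was at 0.278 and 0.023 CPM in M3 and 16.9 and 4.86 CPM in M4. CEACAM6 was at 4.19 and 2.79 CPM in M3 and 28.1 and 11.7 CPM in M4. MUC4 had 0 and 0 counts in M3 and 53 and 23 in M4, at least 21.1-fold higher. Of 26 cornified envelope genes, 4 were higher and 2 lower. SPRR2E, a small proline-rich protein that is cross-linked into the envelope, was at 0.265 and 0.126 CPM in M3 and 19.3 and 2.04 CPM in M4. SPRR1A, of the same class, was at 6.08 and 2.12 CPM in M3 and 119 and 17.8 CPM in M4. KLK7, a protease of skin shedding, was at 0.101 and 0.023 CPM in M3 and 1.67 and 0.986 CPM in M4, below its 5.39 to 21.4 CPM in M1 and M2. CALML3, a calmodulin-like protein, was lower, at 17.4 and 1.23 CPM in M3 and 0 and 0.0384 CPM in M4. M4 replicate 1 was over 2-fold above replicate 2 for 16 of the cornified genes and 4 of the CEACAM and mucin genes. SPRR2 and CEACAM genes are near-identical families whose reads are divided by estimate. The CEACAM and mucin genes called higher numbered 4, 2, 1 and 4 with each library left out, and 1 with the exchange of M1 and M2 libraries. Omitting each of the 4 libraries left 1, 1, 1 and 6 cornified envelope genes called higher, and 7 with DESeq2 and 12 without the filter. These omissions left 1, 2, 0 and 0 cornified envelope genes lower. Calls held throughout for KLK7. The library in parentheses was needed for the call of MUC16 (M4 replicate 1), CEACAM6 (M3 replicate 2 or M4 replicate 1), MUC4 (any of the 4), SPRR2E (M3 replicate 1 or 2 or M4 replicate 1), SPRR1A (M3 replicate 1 or 2 or M4 replicate 1) and CALML3 (M4 replicate 1 or 2), at adjusted p from 0.0567 to 0.184. Losses also came with the exchange of M1 and M2 libraries (MUC16, CEACAM6, MUC4, SPRR1A), a replicate block in 8 libraries (MUC4), a replicate block in the 4 libraries (CALML3), the 4 libraries alone (SPRR1A) and a filter of 1 CPM (MUC4).

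The S100 genes called were lower while kallikreins went both ways. Of 25 genes of both families, 10 were lower and 2 higher. S100A8, one chain of calprotectin, was at 4.69 and 7.21 CPM in M3 and 0.599 and 0.32 CPM in M4. S100A9, its other chain, was at 61.6 and 117 CPM in M3 and 14.3 and 11.4 CPM in M4. S100A2 was at 13796 and 10622 CPM in M3 and 6112 and 4640 CPM in M4. KLK6, a trypsin-like protease, was higher, at 2.99 and 5.32 CPM in M3 and 46 and 20.2 CPM in M4. Of the 10 lower genes 8 were S100 genes and 2 were kallikreins, KLK1 and KLK8, and both of the higher genes, KLK6 and KLK7, were kallikreins. The 4 omissions of a library called 5, 10, 5 and 5 S100 and kallikrein genes lower, and 6 in the 4 libraries alone and 5 with the exchange of M1 and M2 libraries. The same fits had 1, 2, 1 and 2 S100 and kallikrein genes higher. S100A8 was called under every alternative. Without the library in parentheses, calls ended for S100A9 (M4 replicate 1 or 2), S100A2 (M4 replicate 1 or 2) and KLK6 (M3 replicate 1 or M4 replicate 1), at adjusted p from 0.0514 to 0.0886. At an adjusted p under 0.05 the fold limit was missed by S100A2 without M3 replicate 1 (log2 fold change -0.99). Calls were also lost with the exchange of M1 and M2 libraries (S100A2), a replicate block in the 4 libraries (S100A2, KLK6) and the 4 libraries alone (S100A2).

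Part of the glycolysis and hypoxia list was lower in M4, and M3 replicate 1 was the furthest from M4. Of 34 tested, 8 were lower and 0 higher, with a median log2 fold change of -0.93. The summed level was 42883 and 25990 CPM in M3 and 20238 and 19599 CPM in M4. CA9, the hypoxia-induced carbonic anhydrase, was at 175 and 22.1 CPM in M3 and 0.599 and 0.269 CPM in M4. NDRG1 was at 1569 and 444 CPM in M3 and 248 and 270.1 CPM in M4. LDHA, lactate dehydrogenase A, was at 5574 and 3322 CPM in M3 and 1955 and 1998 CPM in M4. Both M4 libraries were below both M3 libraries for all 3. CA12, a second membrane carbonic anhydrase, was instead highest in M3 replicate 2, at 288 and 573 CPM in M3 and 18.6 and 61.7 CPM in M4. HK2, hexokinase 2, was at 199 and 191 CPM in M3 and 96.3 and 98.5 CPM in M4 in close replicates, just past the 2-fold limit (adjusted p = 0.00406). VEGFA, another HIF-1 target, was at 189 and 95.6 CPM in M3 and 129 and 105 CPM in M4 and was not called (adjusted p = 0.692). The stretches of LDHA and CA9 shown above hold the ACGTG core. M3 replicate 1 was over 2-fold above M3 replicate 2 for 14 of the 34 genes and the reverse held for 0, where 11.6% of all genes with at least 20 counts differed that much in either direction. Leaving out each library in turn gave 2, 18, 1 and 3 hypoxia genes called lower, and 15 without the filter, 5 in the 4 libraries alone and 1 with the exchange of M1 and M2 libraries. Every alternative kept the call of CA12. Calls depended on the library in parentheses for CA9 (M3 replicate 1 or M4 replicate 1 or 2), NDRG1 (M3 replicate 1 or M4 replicate 1 or 2) and LDHA (M3 replicate 1 or M4 replicate 1 or 2), at adjusted p from 0.0593 to 0.193. Past the p threshold but under the 2-fold limit were HK2 without M3 replicate 1 (log2 fold change -0.98) and HK2 without M4 replicate 1 (log2 fold change -0.98). Other alternatives that ended a call were the exchange of M1 and M2 libraries (CA9, NDRG1, LDHA, HK2), a replicate block in 8 libraries (CA9, NDRG1), a replicate block in the 4 libraries (NDRG1, LDHA, HK2), the 4 libraries alone (NDRG1, LDHA, HK2), library totals (HK2), RLE scaling (HK2), DESeq2 (HK2) and a filter of 1 CPM (HK2).

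Ligands of the EGF receptor and the targets of ERK, the kinase at the end of the RAS pathway, were followed because neither line was given EGF. HBEGF, a ligand of the EGF receptor, was at 23.4 and 41.9 CPM in M3 and 218 and 219.8 CPM in M4, a log2 fold change of 2.75 ± 0.31 (SE, adjusted p = 0.003), and stood at 5.22 to 15 CPM in M1 and M2. ERBB3, a receptor for neuregulins, was at 10.3 and 12 CPM in M3 and 41.5 and 24.1 CPM in M4. NRG2, a neuregulin, was lower, at 3.85 and 3.96 CPM in M3 and 0.555 and 0.551 CPM in M4. NRG4, a neuregulin as well, was lower, at 14 and 10.6 CPM in M3 and 1.89 and 1.92 CPM in M4. The other 12 of 16 ligands and receptors tested were not called. EPHA2, a receptor tyrosine kinase induced by ERK, was at 92 and 115 CPM in M3 and 411 and 316 CPM in M4. DUSP5, a nuclear ERK phosphatase, was at 22.8 and 23 CPM in M3 and 59.4 and 76.9 CPM in M4. MYEOV was at 13.6 and 16.1 CPM in M3 and 92.9 and 93.6 CPM in M4. SPRY1, a feedback inhibitor, was lower, at 10.2 and 11.7 CPM in M3 and 2.04 and 2.31 CPM in M4. Of 23 ERK genes 4 were higher and 1 was lower, with a median log2 fold change of 0.13, so most members did not pass the test. With each library left out in turn, 3, 7, 3 and 4 ERK genes were called higher. With the libraries left out in turn there were 1, 2, 1 and 3 EGF ligand and receptor genes higher, and 1, 2, 1 and 2 EGF ligand and receptor genes lower. The call held in all alternative fits for HBEGF, NRG4 and EPHA2. Omission of the library in parentheses ended the call of ERBB3 (M3 replicate 1 or M4 replicate 1), NRG2 (any of the 4), MYEOV (M3 replicate 1) and SPRY1 (any of the 4), at adjusted p from 0.0508 to 0.13. A call also ended with the exchange of M1 and M2 libraries (ERBB3, NRG2, DUSP5).

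AP-1 subunits moved apart. ATF3, a stress-induced member, was at 5.74 and 2.43 CPM in M3 and 83.1 and 57.8 CPM in M4, a log2 fold change of 4.11 ± 0.41 (SE, adjusted p = 0.00206). JUN was at 37.6 and 24.5 CPM in M3 and 85.5 and 77.2 CPM in M4. MAFK was at 26.6 and 25.5 CPM in M3 and 54.3 and 54.9 CPM in M4. FOS was lower, at 140.1 and 88.1 CPM in M3 and 29.3 and 32.2 CPM in M4. Of 13 tested, 4 were higher and 1 lower. In the ATF4 and unfolded protein response list 5 of 29 were higher and 1 lower. DDIT3, the factor CHOP, was at 5.77 and 5.92 CPM in M3 and 36.4 and 16.1 CPM in M4. CHAC1, which degrades glutathione, was at 1.04 and 2.27 CPM in M3 and 17.7 and 6.87 CPM in M4. DDIT4, an inhibitor of mTORC1 that hypoxia also induces, was lower, at 4077 and 2031 CPM in M3 and 749 and 808 CPM in M4. In the 4 fits that leave out a library, 3, 5, 2 and 4 AP-1 genes were higher. The ATF4 genes called higher numbered 4, 4, 3 and 6 with each library left out, and 2 with the exchange of M1 and M2 libraries. No alternative ended the call of ATF3, MAFK and DDIT3. The call was lost without the library in parentheses for JUN (M4 replicate 1), FOS (any of the 4), CHAC1 (M3 replicate 1 or 2 or M4 replicate 1) and DDIT4 (M4 replicate 1 or 2), at adjusted p from 0.0509 to 0.167. Beside single libraries, the calls in parentheses were lost with the exchange of M1 and M2 libraries (FOS, CHAC1), a replicate block in 8 libraries (FOS) and a replicate block in the 4 libraries (CHAC1).

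Among targets of p53, CDKN1A moved against the other called genes. GDF15, a secreted stress cytokine, was at 10.6 and 4.55 CPM in M3 and 163 and 156 CPM in M4. MDM2, the ubiquitin ligase that restrains p53, was at 53.1 and 57.9 CPM in M3 and 221 and 266 CPM in M4. PLK3 was at 14.7 and 11.6 CPM in M3 and 64.3 and 50.9 CPM in M4. CDKN1A, the cell cycle inhibitor p21, was lower, at 302 and 264 CPM in M3 and 116 and 94.2 CPM in M4. The replicates of all 4 were close in M4, and the log2 fold changes were 4.40 ± 0.41, 2.13 ± 0.18, 2.13 ± 0.21 and -1.43 ± 0.19 (SE). Of 26 targets tested, 5 were higher and 1 lower, with a median of 0.60, and with library totals 10 were higher. Without M3 replicate 1 the number higher was 8. All alternatives called GDF15, MDM2, PLK3 and CDKN1A.

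Few proliferation genes were called. Of 36 DNA replication genes 0 were higher and 0 lower, with a median log2 fold change of -0.04. Of 38 mitosis genes 1 was lower, DLGAP5, a spindle protein, at 162 and 115 CPM in M3 and 58 and 66 CPM in M4. The mitosis median was -0.70 in the replicates numbered 1 and 0.04 in those numbered 2, so the pairs did not show the same sign. Omitting each of the 4 libraries left 0, 4, 0 and 3 mitosis genes called lower. The call of DLGAP5 was lost without M4 replicate 1 or 2, at adjusted p from 0.0547 to 0.0928. The 2-fold limit alone was missed by DLGAP5 without M3 replicate 1 (log2 fold change -0.90). The named calls were also lost with the exchange of M1 and M2 libraries (DLGAP5).

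More proteases and inhibitors were lower than higher in M4, as was so over all genes tested. Of 27 tested 7 were lower and 2 higher, where the shares over all genes were 6.30% and 3.99%. PLAU, the urokinase plasminogen activator, was higher, at 32.2 and 30.3 CPM in M3 and 217 and 190.0 CPM in M4. PLAT, the tissue plasminogen activator, was lower, at 281 and 668 CPM in M3 and 20.2 and 41.5 CPM in M4. PRSS22, a secreted serine protease, was higher, at 1.86 and 2.35 CPM in M3 and 24.9 and 10.5 CPM in M4. MMP2, a gelatinase, was at 11.7 and 7.47 CPM in M3 and 0.203 and 0.551 CPM in M4. MMP7, matrilysin, was at 7.25 and 1.76 CPM in M3 and 0.185 and 0 CPM in M4. MMP11 had 132 and 90 counts in M3 and none in M4, at least 86.2-fold lower. The M4 libraries were at or near 0 for these 3 metalloproteases. Among 33 matrix genes 4 were lower and 2 higher, to be read against the same shares. COL6A1, a collagen VI chain, was lower, at 7.12 and 12.5 CPM in M3 and 0.652 and 1.27 CPM in M4. COL8A1, a collagen VIII chain, was lower, at 51.6 and 82.4 CPM in M3 and 13.6 and 5.03 CPM in M4. LAMA4, a laminin chain, was higher, at 18.2 and 19.3 CPM in M3 and 36.8 and 48.6 CPM in M4. The 4 omissions of a library called 5, 7, 2 and 4 protease and inhibitor genes lower. Leaving out each library in turn gave 6, 4, 2 and 5 matrix genes called lower. Omission of the libraries in that order gave 0, 2, 1 and 2 protease and inhibitor genes higher, and 0, 1, 1 and 0 matrix genes higher. The library in parentheses was needed for the call of PLAU (M3 replicate 1), PLAT (M3 replicate 2 or M4 replicate 1 or 2), PRSS22 (M3 replicate 1 or M4 replicate 1), MMP2 (M4 replicate 1), MMP7 (M3 replicate 1 or M4 replicate 2), MMP11 (M4 replicate 1), COL6A1 (M4 replicate 1) and LAMA4 (M3 replicate 1 or M4 replicate 2), at adjusted p from 0.0503 to 0.121. Losses also came with the exchange of M1 and M2 libraries (PRSS22, MMP7, COL8A1) and a replicate block in the 4 libraries (COL8A1).

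In the TGF-beta and BMP list the ligands diverged. INHBA, a subunit of activin A, was at 41 and 49.3 CPM in M3 and 238 and 302 CPM in M4, a log2 fold change of 2.58 ± 0.22 (SE, adjusted p = 0.00149), against 3.13 to 19.5 CPM in M1 and M2. TGFB1 was lower, at 39.2 and 38.1 CPM in M3 and 16.8 and 13.4 CPM in M4. TGFB2 was lower, at 2.35 and 2.19 CPM in M3 and 0.467 and 0.0897 CPM in M4. BMP4 was lower, at 2.41 and 3.11 CPM in M3 and 0.608 and 0.717 CPM in M4. TGFBR2, the type II receptor, was lower, at 291 and 416 CPM in M3 and 148 and 141 CPM in M4. SMAD3, the factor that carries the signal to the nucleus, was higher, at 46.5 and 40.9 CPM in M3 and 82.3 and 92.8 CPM in M4. ID4, a target of BMP signals, was at 0.442 and 0.413 CPM in M3 and 0.0441 and 0.0769 CPM in M4. Of 32 tested, 7 were lower and 2 higher. With each library left out in turn, 4, 3, 3 and 3 TGF-beta and BMP genes were called lower, and 3 with the exchange of M1 and M2 libraries. In the same order there were 2, 1, 1 and 1 TGF-beta and BMP genes higher. TGFB1 and TGFBR2 were called under every alternative. Without the library in parentheses, calls ended for TGFB2 (M3 replicate 1 or 2), BMP4 (any of the 4), SMAD3 (M4 replicate 1 or 2) and ID4 (M4 replicate 1 or 2), at adjusted p from 0.0512 to 0.128. Past the p threshold but under the 2-fold limit was SMAD3 without M3 replicate 2 (log2 fold change 0.91). Calls were also lost with the exchange of M1 and M2 libraries (INHBA, TGFB2, BMP4, ID4), no filter (SMAD3) and a filter of 1 CPM (ID4).

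WNT ligands moved in both directions. WNT7B was at 2.16 and 5.12 CPM in M3 and 23.7 and 42 CPM in M4. WNT9A was at 9.82 and 22.8 CPM in M3 and 59.8 and 66.9 CPM in M4. Both were higher in M4. WNT10A was lower, at 0.707 and 0.54 CPM in M3 and 0.141 and 0.179 CPM in M4. FZD7, a WNT receptor, was lower, at 20.3 and 33.6 CPM in M3 and 3.58 and 7 CPM in M4. FZD1 was lower too, at 12.3 and 16.9 CPM in M3 and 4.41 and 4.21 CPM in M4. FZD2 was at 6.06 and 4.49 CPM in M3 and 2.54 and 1.96 CPM in M4, so the 3 receptors called were all lower. SFRP1, a secreted antagonist, was lower, at 457 and 554 CPM in M3 and 130.3 and 130.3 CPM in M4. Of 28 genes tested 7 were lower and 2 higher. Of 23 Notch genes 3 were lower and 1, HES2, was higher, at 19.6 and 11.8 CPM in M3 and 86.9 and 78.8 CPM in M4. LFNG, which modifies Notch with sugar, was at 17.2 and 21.8 CPM in M3 and 3.29 and 5.77 CPM in M4. DLL3 was at 3.33 and 2.86 CPM in M3 and 1.43 and 1.31 CPM in M4. Of 23 YAP and TEAD targets 3 were lower and 1 higher (3 and 3 with library totals). For these and the WNT and Notch counts, the shares lower and higher over all genes tested were 6.30% and 3.99%. AXL, a receptor tyrosine kinase, was lower, at 83.8 and 117 CPM in M3 and 17.1 and 34.6 CPM in M4. RBMS3, an RNA-binding protein, was lower, at 4.94 and 4.98 CPM in M3 and 1.56 and 0.858 CPM in M4. CCN2, a secreted matricellular protein, was the higher one, at 5.62 and 6.45 CPM in M3 and 32.4 and 11.3 CPM in M4. In the 4 fits that leave out a library, 6, 6, 1 and 4 WNT genes were lower. The YAP and TEAD genes called lower numbered 2, 1, 2 and 2 with each library left out. These omissions left 2, 2, 1 and 1 WNT genes higher, 2, 2, 2 and 2 Notch genes lower, and 2, 0, 1 and 1 YAP and TEAD genes higher. Every alternative kept the call of WNT7B, SFRP1, HES2 and LFNG. Calls depended on the library in parentheses for WNT9A (M4 replicate 1 or 2), WNT10A (M4 replicate 1), FZD7 (M4 replicate 1), FZD1 (M4 replicate 1 or 2), FZD2 (M3 replicate 1 or M4 replicate 1 or 2), DLL3 (any of the 4), AXL (M3 replicate 2 or M4 replicate 1), RBMS3 (M4 replicate 2) and CCN2 (M3 replicate 1 or 2 or M4 replicate 1), at adjusted p from 0.0513 to 0.197. Other alternatives that ended a call were the exchange of M1 and M2 libraries (FZD2, DLL3, RBMS3, CCN2), a replicate block in 8 libraries (DLL3, CCN2), a replicate block in the 4 libraries (WNT10A, DLL3, CCN2), the 4 libraries alone (WNT10A, FZD2, DLL3), library totals (DLL3) and no filter (DLL3).

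Cytokines of the IL-1 family and IL-6 were among those higher in M4. Of 35 chemokines and cytokines 8 were higher and 5 lower. IL1B was at 13.7 and 8.85 CPM in M3 and 91.7 and 33.6 CPM in M4. IL1RN, the antagonist of its receptor, was at 17.4 and 9.06 CPM in M3 and 164 and 65.4 CPM in M4. IL1R1, the receptor, was lower, at 7.87 and 7.28 CPM in M3 and 1.9 and 3.6 CPM in M4. IL36RN, the antagonist of the IL-36 receptor, was at 0.291 and 0.023 CPM in M3 and 5.08 and 2.64 CPM in M4. IL24 was at 0.758 and 0.459 CPM in M3 and 6.48 and 11.1 CPM in M4. IL6 was at 0.0505 and 0.023 CPM in M3 and 1.12 and 0.525 CPM in M4. CXCL8, a neutrophil chemokine, was at 76 and 61.9 CPM in M3 and 227 and 135 CPM in M4. SAA1, an acute-phase protein, was lower, at 169 and 43.1 CPM in M3 and 2.74 and 10.9 CPM in M4. Its near-identical neighbour SAA2 was lower too, at 17.6 and 5.01 CPM in M3 and 0.828 and 1.27 CPM in M4. In the IL-1 and the IL-36 systems a ligand and an antagonist were both higher, where IL36B is described above. Omitting each of the 4 libraries left 4, 4, 1 and 6 cytokine genes called higher, and 13 with DESeq2, 14 without the filter and 4 with the exchange of M1 and M2 libraries. The same fits had 2, 4, 1 and 3 cytokine genes lower. The call held in all alternative fits for IL24. Omission of the library in parentheses ended the call of IL1B (M3 replicate 1 or 2 or M4 replicate 1), IL1RN (M3 replicate 1 or 2 or M4 replicate 1), IL1R1 (M3 replicate 1), CXCL8 (M3 replicate 1 or 2 or M4 replicate 1), IL36RN (M4 replicate 1 or 2), IL6 (any of the 4), SAA1 (M3 replicate 1 or M4 replicate 1) and SAA2 (M4 replicate 1), at adjusted p from 0.055 to 0.152. A call also ended with the exchange of M1 and M2 libraries (IL1R1, CXCL8, IL36RN, IL6), a replicate block in the 4 libraries (SAA1), the 4 libraries alone (IL1R1) and a filter of 1 CPM (IL6).

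Among inflammasome genes the adaptor was absent from M4 and a caspase was higher. Beside PYCARD, described above, CARD8, a sensor, was lower, at 9.16 and 9.8 CPM in M3 and 4.18 and 4.18 CPM in M4. CASP4, which detects lipopolysaccharide, was higher, at 64.1 and 54.6 CPM in M3 and 138 and 113 CPM in M4. CARD17P, a pseudogene of the same cluster as CASP4, had 1 and 2 counts in M3 and 48 and 34 in M4, a ratio of 24.1-fold (counting interval 8.14 to 115). Of 16 tested 2 were higher and 2 lower, where 3.99% and 6.30% of all genes tested were. With the libraries left out in turn there were 2, 0, 0 and 1 inflammasome genes higher, and 2, 2, 1 and 2 inflammasome genes lower. The call was lost without the library in parentheses for CARD8 (M4 replicate 1), CASP4 (M3 replicate 2 or M4 replicate 1) and CARD17P (any of the 4), at adjusted p from 0.0516 to 0.194.

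The metallothioneins called were lower in M4 and the NRF2 targets called were higher. MT1E was at 77.9 and 52.4 CPM in M3 and 0.0881 and 0.73 CPM in M4. MT1X was at 286 and 64.6 CPM in M3 and 16.9 and 11.1 CPM in M4. MT2A was at 3605 and 2378 CPM in M3 and 840.0 and 984 CPM in M4. These zinc-binding proteins were lower in both M4 libraries than in either M3 library. TXNRD1, thioredoxin reductase 1, was at 57 and 112 CPM in M3 and 457 and 719.5 CPM in M4, and at 126 to 307 CPM in M1 and M2. ABCC2, an exporter of glutathione conjugates, was at 2.32 and 3.36 CPM in M3 and 33.4 and 71.8 CPM in M4. Its level was 28.9 to 73 CPM in M1 and M2, so M4 lay in the parental range and M3 below it. HMOX1, haem oxygenase 1, was at 3.55 and 5.4 CPM in M3 and 33.6 and 22 CPM in M4. Of 25 in the joint list 4 were higher and 3 lower. Several other NRF2 targets, named after their values were seen, were high in M4 replicate 2 and low in M4 replicate 1. AKR1B10 was at 6.72 and 2.2 CPM in M3 and 3.13 and 34.9 CPM in M4. AKR1C2 was at 242 and 733 CPM in M3 and 188 and 869.6 CPM in M4. AKR1C3 was at 138 and 196 CPM in M3 and 62.2 and 305 CPM in M4. These 3 aldo-keto reductases were not called. In this list M4 replicate 2 was over 2-fold above replicate 1 for 7 members and the reverse held for 0, against 2.22% and 9.16% over all genes. Metallothionein and aldo-keto reductase genes are near-identical families, so the division of reads is uncertain. The 4 omissions of a library called 2, 5, 4 and 2 NRF2 genes higher, and 7 with DESeq2 and 8 without the filter. Omission of the libraries in that order gave 3, 4, 1 and 2 metallothionein and NRF2 genes lower. All alternatives called ABCC2. With the library in parentheses left out, no call was made for MT1X (M4 replicate 1 or 2), MT2A (M4 replicate 1), TXNRD1 (M3 replicate 1 or M4 replicate 2) and HMOX1 (any of the 4), at adjusted p from 0.0551 to 0.164. Among other alternatives, calls ended with the exchange of M1 and M2 libraries (MT2A) and a replicate block in the 4 libraries (MT1E).

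Ribosomal protein and respiratory chain genes had lower medians than other genes, with few of them called. Of 75 cytosolic ribosomal protein genes 8 were lower and 0 higher, with a median log2 fold change of -0.67. Their summed level was 143960 and 87310 CPM in M3 and 69097 and 74859 CPM in M4. The M3 replicates were further apart than M3 replicate 2 was from either M4 library. RPS29 was at 948 and 519 CPM in M3 and 273 and 279.9 CPM in M4. RPS27A was at 2234 and 1769 CPM in M3 and 865 and 985 CPM in M4. RPL13A was at 5143 and 3132 CPM in M3 and 1789 and 2050 CPM in M4. Leaving out each library in turn gave 0, 39, 0 and 1 ribosomal genes called lower, and 1 with library totals, 4 in the 4 libraries alone and 3 with the exchange of M1 and M2 libraries. Of 46 nuclear genes of oxidative phosphorylation 4 were lower, with a median of -0.58. COX5B, a subunit of cytochrome c oxidase, was at 297 and 248 CPM in M3 and 99.8 and 97.7 CPM in M4. COX6B1 was at 359.9 and 239.9 CPM in M3 and 134 and 128 CPM in M4. NDUFA4 was at 314 and 211 CPM in M3 and 118 and 123 CPM in M4. Of 15 mitochondrially encoded genes 0 were called in either direction, with a median of 0.20. Genes with little exonic sequence had a lower median too. The median log2 fold change ran from -0.18 in the fifth of protein coding genes with the least exonic sequence to 0.09 in the fifth with the most, and between the M3 replicates from 0.22 to -0.20. The part of transcript length in the ribosomal result was not tested. With each library left out in turn, 1, 6, 1 and 1 oxidative phosphorylation genes were called lower. COX5B kept its call under all alternatives. Calls were lost without the library in parentheses for RPS29 (M4 replicate 1 or 2), RPS27A (M4 replicate 1), RPL13A (M4 replicate 1 or 2), COX6B1 (M4 replicate 1 or 2) and NDUFA4 (M3 replicate 1 or M4 replicate 1 or 2), at adjusted p from 0.0654 to 0.159. At an adjusted p under 0.05 the fold limit was missed by RPS29 without M3 replicate 1 (log2 fold change -0.91), RPS27A without M3 replicate 1 (log2 fold change -0.94), RPL13A without M3 replicate 1 (log2 fold change -0.71) and COX6B1 without M3 replicate 1 (log2 fold change -0.88). The named calls were also lost with the exchange of M1 and M2 libraries (RPL13A, NDUFA4), a replicate block in the 4 libraries (RPL13A), the 4 libraries alone (RPL13A) and library totals (RPS27A, RPL13A, NDUFA4).

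Genes with imprinted, HOX and chromatin roles were counted last. Of 18 imprinted genes 4 were higher and 2 lower. H19, a non-coding RNA expressed from the maternal copy on 11p, was at 23 and 12.2 CPM in M3 and 0.0529 and 0.243 CPM in M4, with 7.32 to 10.9 CPM in M1 and M2. KCNQ1OT1, an antisense RNA from another imprinted domain of 11p, was higher, at 1.2 and 0.643 CPM in M3 and 9.16 and 6.87 CPM in M4. PLAGL1 was higher, at 9.42 and 8.97 CPM in M3 and 30.3 and 23.7 CPM in M4. MEST was lower, at 159.9 and 122 CPM in M3 and 38.1 and 50.8 CPM in M4. Of 27 HOX genes 5 were lower and 0 higher, with HOXB2 at 3.46 and 4.45 CPM in M3 and 0.106 and 0.0256 CPM in M4. HOXB3 was at 4.07 and 6.08 CPM in M3 and 0.872 and 0.922 CPM in M4. HOXC5 was at 0.897 and 1.48 CPM in M3 and 0.247 and 0.192 CPM in M4. Of 22 chromatin genes HDAC9, a histone deacetylase, was higher, at 6.03 and 2.56 CPM in M3 and 47.1 and 28.5 CPM in M4. KDM6A, a histone demethylase, was higher, at 18.8 and 22.2 CPM in M3 and 41.3 and 42.1 CPM in M4. TET1, which oxidizes methylated cytosine, was lower, at 2.56 and 1.71 CPM in M3 and 0.229 and 0.333 CPM in M4. Of 32 germline and cancer-testis genes listed, 1 was expressed enough to be tested and was not called. In the 4 fits that leave out a library, 5, 4, 1 and 2 HOX genes were lower, and 2 with the exchange of M1 and M2 libraries. In the same order there were 3, 3, 2 and 3 imprinted genes higher, 1, 2, 1 and 2 imprinted genes lower, and 3, 1, 0 and 0 chromatin genes lower. Calls held throughout for H19, PLAGL1, HOXB2 and HDAC9. The library in parentheses was needed for the call of KCNQ1OT1 (any of the 4), MEST (M3 replicate 1 or M4 replicate 1), HOXB3 (M4 replicate 1), HOXC5 (M4 replicate 1 or 2) and TET1 (M3 replicate 1 or M4 replicate 1 or 2), at adjusted p from 0.0501 to 0.12. Past the p threshold but under the 2-fold limit was KDM6A without M3 replicate 1 (log2 fold change 0.90). Losses also came with the exchange of M1 and M2 libraries (KCNQ1OT1, HOXB3).

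Non-coding genes with the largest changes included some that were not traced to a programme. LINC03040 on 6p was at 0.404 and 0.161 CPM in M3 and 37.6 and 54.1 CPM in M4, against 0.411 to 2.64 CPM in the parental lines, a log2 fold change of 7.35 ± 0.51 (SE, adjusted p = 0.000941). RP11-417J8.6 on 1q was at 0.189 and 0 CPM in M3 and 5.6 and 9.83 CPM in M4. LINC01806 on 2q had 208 and 190 counts in M3 and none in M4, at least 154-fold lower. ENSG00000232721 on 1q was at 1.52 and 1.88 CPM in M3 and 0.0176 and 0.0256 CPM in M4. LSP1P4, a pseudogene on 2p, was at 3.32 and 2.14 CPM in M3 and 0.0352 and 0.0641 CPM in M4. The lines did not overlap for any of these genes, which was a condition for naming them. LINC03040, LINC01806, ENSG00000232721 and LSP1P4 were called under every alternative. The call of RP11-417J8.6 was lost without M4 replicate 1 or 2, at adjusted p from 0.0589 to 0.0658. Calls were also lost with a replicate block in the 4 libraries (RP11-417J8.6).

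Median changes differed between chromosome arms. The protein coding genes of 2p had a median log2 fold change of -0.44, with 58 of 375 called lower (15.5%) and 4 higher, where 7.36% and 4.18% of all protein coding genes tested were lower and higher. The median was below 0 in each of the 4 pairings of an M4 with an M3 library, from -0.61 to -0.28. On 2p M3 stood at 0.44 over the mean of M1 and M2 and M4 at 0.004, so it was M3 that lay apart. Arms 1q and 15q were alike in this, with fitted medians of -0.37 and -0.37 and M3 over M1 and M2 at 0.39 and 0.30. On 1q 81 of 656 genes were lower and on 15q 44 of 466. On 19q, with a median of -0.40 and 74 of 551 genes lower, M4 stood at -0.56 over M1 and M2 and M3 at -0.22, so that M4 lay further off. The highest arms were 10p at 0.23 and 16p at 0.18.

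Single genes on these arms changed far more than their arm. On 2p, ADD2 and RNF144A are described above, and EHD3, which acts in membrane recycling, was at 4.22 and 5.73 CPM in M3 and 0.0441 and 0.0769 CPM in M4. On 19q, EMP3, a membrane protein, was at 67.9 and 25.5 CPM in M3 and 1.08 and 2.24 CPM in M4. APOC1, an apolipoprotein, was at 3.44 and 1.27 CPM in M3 and 0.0176 and 0.0512 CPM in M4. FCGRT, the neonatal Fc receptor, was at 3.57 and 3.82 CPM in M3 and 0.0793 and 0.167 CPM in M4. On 1q, NES, the intermediate filament nestin, was at 2.31 and 4.48 CPM in M3 and 0.0176 and 0.0769 CPM in M4. On 15q, SHF was at 15.6 and 25.4 CPM in M3 and 1.23 and 1.11 CPM in M4. CSPG4, a membrane proteoglycan, was at 7.06 and 17.9 CPM in M3 and 0.837 and 0.756 CPM in M4. On 16p, TMC5 was at 0.291 and 0.276 CPM in M3 and 4.65 and 4.2 CPM in M4. HS3ST2, a heparan sulfate sulfotransferase, was at 0.455 and 0.964 CPM in M3 and 6.76 and 4.88 CPM in M4. On 10p, KLF6, a zinc finger factor, was at 175 and 116 CPM in M3 and 337 and 361 CPM in M4. MAP3K8, a kinase that activates the ERK pathway, was at 0.619 and 0.459 CPM in M3 and 3.11 and 2.06 CPM in M4. IDI1, of the cholesterol list, was at 135 and 137 CPM in M3 and 391 and 487 CPM in M4. Every alternative kept the call of EHD3 and SHF. Calls depended on the library in parentheses for APOC1 (M4 replicate 1), FCGRT (M4 replicate 1), NES (any of the 4), CSPG4 (M4 replicate 1 or 2), HS3ST2 (M3 replicate 1 or M4 replicate 1 or 2), MAP3K8 (M3 replicate 1 or 2 or M4 replicate 1) and IDI1 (any of the 4), at adjusted p from 0.053 to 0.151. At an adjusted p under 0.05 the fold limit was missed by KLF6 without M3 replicate 2 (just under it). Other alternatives that ended a call were the exchange of M1 and M2 libraries (TMC5, MAP3K8, IDI1) and a replicate block in the 4 libraries (EMP3).

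**Figure D5:**
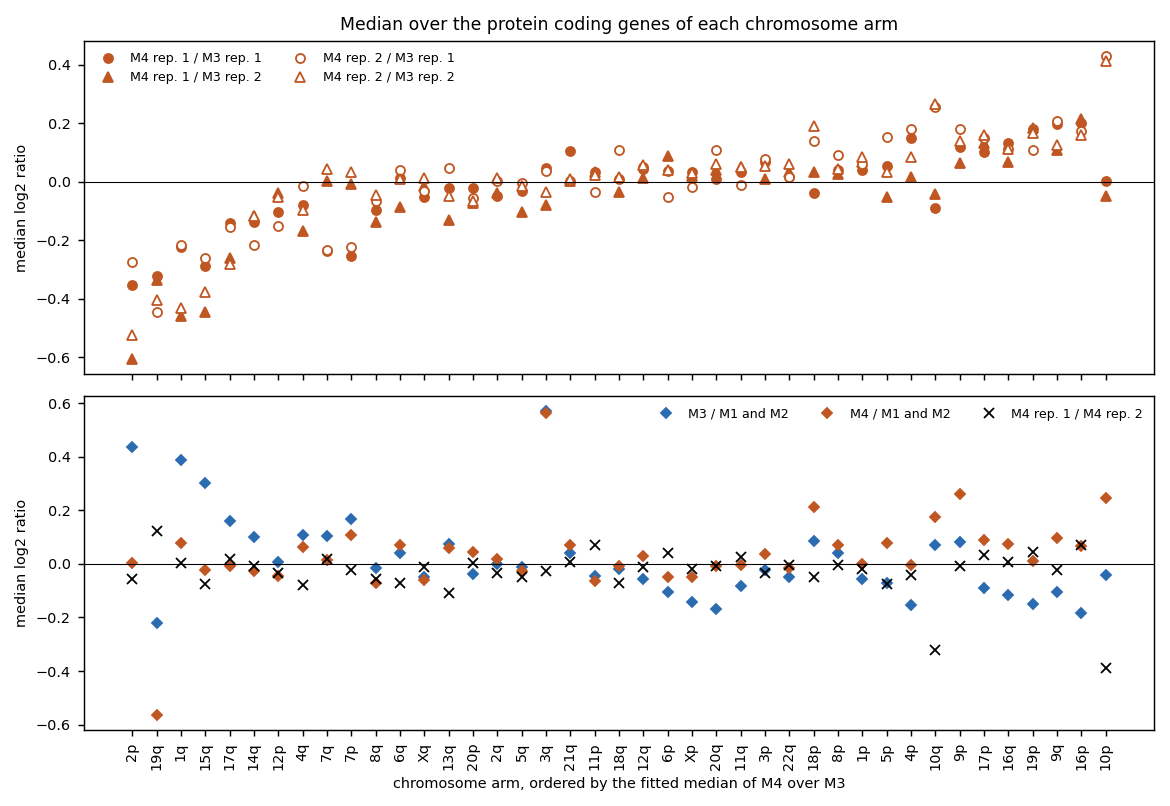
The upper panel gives, for each of 41 chromosome arms, the median log2 ratio of M4 over M3 over its protein coding genes in the 4 library pairings, on the log2(CPM + 0.1) scale. The lower panel gives M3 and M4 over the mean of M1 and M2 and M4 replicate 1 over M4 replicate 2, whose crosses lie near 0 except on 10p and 10q.

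Chromosome 10 set the M4 replicates apart. M4 replicate 1 over M4 replicate 2 had a median of -0.39 on 10p and -0.32 on 10q, and on the other 39 arms it lay between -0.11 (13q) and 0.12 (19q). Replicate 1 was the lower for 95 of 120 genes of 10p (79.2%) and 339 of 425 of 10q (79.8%). Between the M3 replicates the medians were -0.04 and 0.07. Against M3, M4 replicate 2 was higher on 10p by 0.43 and 0.41, while M4 replicate 1 gave 0.004 and -0.05. The positive fitted median of 10p therefore came from M4 replicate 2. The difference was read from expression alone, and the number of copies of the chromosome was not measured here.

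Across the genome the M4 replicates differed by more than 2-fold for 203 of the called genes and for 1852 of the 16286 genes with at least 20 counts in 1 of the 2 libraries. Replicate 1 was the higher for 1491 of these (9.16% of the 16286) and replicate 2 for 361 (2.22%). M4 replicate 1 was the deeper library, so a gene high in it reaches 20 counts more readily. With at least 100 counts in 1 library the split was 603 and 157 of 13237 genes. Between the M3 replicates the count at the limit of 20 was 1852 of 15928 (11.6%), more evenly divided at 1055 and 797. For 426 of the M4 genes both M3 values lay between the M4 values or at one of them. For 491 of the M3 genes both M4 values likewise lay between the M3 values or at one of them. Among the 426, ranked by the replicate ratio, UGT1A7, a glucuronosyltransferase, was at 0.316 and 0.138 CPM in M3 and 0.0352 and 2.63 CPM in M4. TSPAN7, a tetraspanin, was at 1.83 and 2.37 CPM in M3 and 0.344 and 3.97 CPM in M4. RASA3, a GTPase-activating protein for RAS, was at 7.31 and 7.12 CPM in M3 and 1.25 and 10.4 CPM in M4. PADI4, which turns arginine into citrulline, was at 0.657 and 0.264 CPM in M3 and 0.185 and 1.5 CPM in M4. COL6A3, a collagen VI chain, was at 1.04 and 0.918 CPM in M3 and 0.211 and 1.4 CPM in M4. In these 5 genes M4 replicate 2 was high and M4 replicate 1 low. At the other end IFI44L, an interferon-stimulated gene, was at 1.82 and 1.16 CPM in M3 and 11.3 and 0.436 CPM in M4. ADAMTS1, a secreted metalloprotease, was at 0.91 and 2.57 CPM in M3 and 7.64 and 0.423 CPM in M4. DEFB103A was at 0.0253 and 0.023 CPM in M3 and 2.04 and 0 CPM in M4. CSPG4P9 was at 1.17 and 0.976 CPM in M3 and 1.41 and 0 CPM in M4. The readthrough transcript DNAAF4-CCPG1 was at 0 and 0 CPM in M3 and 0.987 and 0 CPM in M4, so that here M3 was level with M4 replicate 2. DEFB103A, CSPG4P9 and DNAAF4-CCPG1 share sequence with other genes, so the division of reads among them is uncertain.

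The RAS oncogene and the genes on which the study centred were not called between these lines. HRAS, which both lines carry as the activated transgene beside their own copies, was at 269 and 327 CPM in M3 and 335 and 352 CPM in M4 and at 139 to 159.8 CPM in M1 and M2. Its log2 fold change was 0.21 ± 0.15 (SE, adjusted p = 0.364), and the counts do not separate the transgene from the native gene. PDCD4, a tumour suppressor that blocks translation initiation, lies on 10q at chr10:112631553-112659764 and was at 78.3 and 56.6 CPM in M3 and 51 and 58.8 CPM in M4, with 156 to 299 CPM in M1 and M2. Its M4 and M3 values overlapped (log2 fold change -0.30 ± 0.26, SE, adjusted p = 0.458). PDCD4-AS1, the antisense RNA at its start, was at 0.417 and 0.172 CPM in M3 and 0.132 and 0.128 CPM in M4, a log2 fold change of -1.16 ± 0.54 (SE, adjusted p = 0.175), with 33 and 15 counts in M3 and 15 and 10 in M4. Without stranded counting its reads cannot be told apart from those of PDCD4 where they overlap. A difference of M4 from M3 was not detectable for PDCD4-AS1 at these counts, and none of the 3 genes was called under any alternative.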

How the data were processed

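Poly(A)+ RNA from 2 biological replicates each of M1, M2, M3 and M4 was sequenced as paired-end reads. The authors trimmed reads with Trimmomatic, aligned them to hg19 (GRCh37) with STAR and the GENCODE annotation, and estimated gene counts with RSEM. Picard is also named in the submitters' processing notes. Versions, the counting settings and whether counting used strand are not given in the sources used here. The deposited values are expected counts per gene, which need not be whole (12% to 13.8% were not), because reads shared by genes are divided by estimate. The 8 libraries summed to 69669970 to 107350344 expected counts, so precision at low counts differs between them.

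These estimates were first rounded to integers. Genes were kept by filterByExpr in edgeR (version 4.0.16, R 4.3.3), scaled by TMM and tested with robust quasi-likelihood fits that had 1 coefficient per line and shared 1 estimate of spread over all 8 libraries. P-values were adjusted by the Benjamini-Hochberg method over all genes tested. Calls required both an absolute log2 fold change above 1 and an adjusted p under 0.05. Where a line had no count, a fold was bounded by 3 counts over both of its libraries. Where it had 1 to 3, the ratio was given with an exact 95% counting interval, which covers counting error only. Levels on a log2 scale outside the fit were log2(CPM + 0.1), and the 2-fold rule added 0.001 CPM. Of 29419 genes with a count, 27864 (94.7%) were matched by identifier to GENCODE release 44 on GRCh37, which gave symbols, classes and positions. The remainder kept their identifiers. Promoters were the 250 bases before a RefSeq start and 50 after it.

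The text names the 10 coding and 4 non-coding genes with the largest change in each direction among those called, with at least 100 counts in both libraries of the higher line and no overlap between lines. It also names up to 3 called members in each direction of each list with at least 20 such counts, members on whose role a list turns, genes of the chromosome arms described, the genes of the study, and the 5 genes with the largest replicate ratio each way. Some genes that meet these rules are not reported here. Genes not classed in release 44 were left out of the non-coding choice. The members and lists were chosen with earlier results of these data known. The fit was tested on simulated counts with known changes. Alternatives were RLE scaling, library totals, DESeq2 (version 1.42.0), other filters and thresholds, the 4 libraries of M3 and M4 alone, a replicate block, each library left out, and an exchange of 1 M1 with 1 M2 library.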

Additional observations from a re-analysis of the deposited data

How the results depend on the processing

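Every call shared between the reported test and an alternative fit had the same direction. RLE scaling kept 1838 of the 1897 calls (96.9%), DESeq2 1834, library totals 1693 and the 4 libraries alone 1512. Counts of calls moved by more than 1.5 times without the filter (2916, 1192 of them higher), with 1 M1 and 1 M2 library exchanged (830, with 286 higher and 544 lower, and 828 shared), with the adjusted p alone (3091, with 1300 higher and 1791 lower), above a 2 log2 unit change (982, with 331 and 651) and under an adjusted p of 0.01 (657, with 238 and 419). Leaving out 1 library gave 598 (without M4 replicate 1) to 1671 (without M3 replicate 2) calls, 227 to 571 of them higher and 371 to 1100 lower. Without M3 replicate 1 there were 1211 calls and without M4 replicate 2 there were 1029. Of the reported calls, 539 (28.4%) were kept without M4 replicate 1. In these fits the lone library of a line was assumed to vary like the other lines. The 2-fold rule held for 1101 genes with 1 CPM added and for 2641 with at least 10 counts in both libraries of a line. The M4 replicates differed 4-fold for 537 genes, and 2-fold for 760 genes with at least 100 counts in 1 library. The replicate block called 1756 genes in 8 libraries and 2281 in 4, where the 4 libraries without it gave 1743. Deviations of same-numbered M3 and M4 libraries correlated at 0.122 over genes, in only 2 pairs. Between the other pairs of lines the correlation ran from -0.024 to 0.03. Whether libraries of equal number share more than the number was not tested. Of 2428 refits of 187 genes picked for naming, 2040 kept their direction and their side of the threshold, 388 lost the call and 0 reversed. The losses came mostly without M4 replicate 1 (98), M3 replicate 1 (69), M4 replicate 2 (59) or M3 replicate 2 (47) and with the exchange (57), and a replicate block in 4 libraries ended 20. Of counts over gene lists 721 of 936 stayed within 1.5 times, and of arm medians 26 of 36 stayed within the spread between replicate pairings. With 2 libraries a line, 6229 genes had an unadjusted p under 0.05. Some calls ended with the fold little changed and others with a smaller fold. Over the 4 omissions the log2 fold change was -2.43 to -2.23 for SPRY1 and -2.84 to -2.79 for NRG2. Without M4 replicate 1 it fell from 3.83 to 1.57 for ISG15 and from 5.52 to 1.85 for IFI27. Why the calls depended on 1 library was not tested.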
